A study of Mus musculus with 26 samples.

Results

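The 8 genes described here (Ttr, Folr1, Clic6, Kl, Otx2, Tmem72, Kcnj13 and Foxj1) are known from the choroid plexus, and the last also from ciliated ependyma. They are 8 of the 27501 gene identifiers counted in a study of nuclear RNA from whole mouse brain, and they were picked by symbol because most of them had been seen to be high in nuclei sorted from an astrocyte-labelled mouse line. The comparisons that involve the sorted astrocyte nuclei therefore chose these genes, and for the 8 genes those comparisons are given as a description without a test. All mice were 6 to 12 weeks old, and all carried a transgene in which a fusion of enhanced green fluorescent protein with the ribosomal protein Rpl10a is driven by the regulatory sequence of 1 gene. The names of the lines begin with B6.FVB and end with /J. The astrocyte line carries Tg(Aldh1L1-EGfp/Rpl10a)JD130Htz, driven by Aldh1l1, the neuron line Tg(Snap25-EGfp/Rpl10a)JD362Htz, driven by Snap25, and the oligodendrocyte line Tg(Cnp-EGfp/Rpl10a)JD368Htz, driven by Cnp. The 7 groups were sorted astrocyte nuclei, presort nuclei of the astrocyte line, which are unsorted and hold all cell types, the same pair for the neuron and the oligodendrocyte line, and whole-brain cytoplasm. Each nuclear group held 4 libraries, 2 from males and 2 from females, and the cytoplasm held 2, of which replicate 1 came from a male of the astrocyte line and replicate 2 from a female of the oligodendrocyte line. The label on a sorted group names the line, so what a sorted group holds depends on which cells carry the transgene and pass the sort.

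The choroid plexus is a sheet of secretory epithelium over a vascular core that hangs in the brain ventricles. It makes cerebrospinal fluid by moving ions and water from blood to ventricle, forms a barrier with tight junctions, and secretes carrier proteins into the fluid. Its epithelium is continuous with the ependyma, the ciliated lining of the ventricles, and derives like the ependyma and the astrocytes from the neuroepithelium. Transthyretin, the product of Ttr, carries thyroid hormone and retinol-binding protein and is the main secreted protein of this epithelium. Folr1 encodes folate receptor alpha, which takes folate across the epithelium. Kl encodes klotho, a co-receptor for a fibroblast growth factor hormone that is also shed into the fluid. Kcnj13 encodes the potassium channel Kir7.1, and Clic6 a member of the chloride intracellular channel family. Tmem72 encodes a membrane protein. Otx2 encodes a homeodomain transcription factor needed for choroid plexus development and maintenance, and Foxj1 a forkhead transcription factor that drives the motile cilium programme.

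The genes lie on 8 different chromosomes (GENCODE M21 on GRCm38). Folr1 spans chr7:101858331-101870788 on the minus strand, Clic6 chr16:92485736-92541243 on the plus strand and Kl chr5:150952607-150993817 on the plus strand. Otx2 spans chr14:48657677-48673819, Tmem72 chr6:116679063-116716913, Kcnj13 chr1:87386363-87394729 and Foxj1 chr11:116330704-116335399, all on the minus strand. All 8 are protein-coding. Their identifiers in the counts are ENSMUSG00000061808 for Ttr, ENSMUSG00000001827 for Folr1, ENSMUSG00000022949 for Clic6, ENSMUSG00000058488 for Kl, ENSMUSG00000021848 for Otx2, ENSMUSG00000048108 for Tmem72, ENSMUSG00000079436 for Kcnj13 and ENSMUSG00000034227 for Foxj1.

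RefSeq windows of 300 bases, 250 before and 50 after a transcription start, were taken on GRCm38.p6 for 4 of the 8 genes, 1 each for Tmem72, Kl and Kcnj13 and 4 for Otx2. Each was searched on both strands for TAATCC, the letters bound by bicoid-type homeodomain proteins, the class to which Otx2 belongs. The letters were in 1 of these 7 windows, 1 of the Otx2 starts, and in 2320 of all 32851 windows (7.06%). They were in 3 of the 34 windows of the other choroid plexus genes described further on (8.82%). The single windows of Tmem72, Kl and Kcnj13, which lack the letters, and the Otx2 window that holds them are shown to set them beside each other, 5′ to 3′ on the strand of the gene. Capitals in the last mark the match, which reads GGATTA on this strand.
Tmem72, chr6:116716709-116717008, minus strand: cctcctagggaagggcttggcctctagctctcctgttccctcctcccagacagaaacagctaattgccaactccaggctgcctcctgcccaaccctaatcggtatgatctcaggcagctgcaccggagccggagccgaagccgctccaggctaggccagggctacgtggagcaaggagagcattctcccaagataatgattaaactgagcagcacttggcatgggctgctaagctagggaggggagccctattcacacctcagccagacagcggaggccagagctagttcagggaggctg
Kl, chr5:150952357-150952656, plus strand: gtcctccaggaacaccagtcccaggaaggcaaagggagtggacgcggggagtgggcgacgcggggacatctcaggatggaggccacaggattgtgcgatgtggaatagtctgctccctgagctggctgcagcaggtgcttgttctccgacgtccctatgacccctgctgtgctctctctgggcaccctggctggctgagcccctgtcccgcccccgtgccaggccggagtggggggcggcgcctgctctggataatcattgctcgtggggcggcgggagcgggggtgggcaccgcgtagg
Kcnj13, chr1:87394680-87394979, minus strand: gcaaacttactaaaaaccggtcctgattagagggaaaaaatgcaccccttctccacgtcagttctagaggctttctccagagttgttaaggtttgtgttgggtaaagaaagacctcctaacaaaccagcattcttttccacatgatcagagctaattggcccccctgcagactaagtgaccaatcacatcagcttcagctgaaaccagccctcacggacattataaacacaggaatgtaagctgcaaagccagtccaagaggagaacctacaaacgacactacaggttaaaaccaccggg
Otx2, chr14:48665060-48665359, minus strand: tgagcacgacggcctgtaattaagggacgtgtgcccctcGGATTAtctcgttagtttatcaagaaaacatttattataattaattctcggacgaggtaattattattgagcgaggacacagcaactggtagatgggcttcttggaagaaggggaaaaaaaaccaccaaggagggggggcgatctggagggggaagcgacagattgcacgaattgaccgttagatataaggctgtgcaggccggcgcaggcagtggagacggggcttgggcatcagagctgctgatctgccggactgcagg

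Sorted libraries held 134357 to 3239445 counts, presort libraries 147826 to 3274488 with a median of 260451, and the cytoplasmic libraries 4461568 and 3885312. Levels are given as CPM, a gene's counts per 1000000 counts of the library. A floor of 3 counts was worth 22.3 CPM in sorted astrocyte replicate 30, the shallowest library, between 9.56 and 20.3 CPM in all presort libraries other than astrocyte-line replicate 29, where it was 0.916 CPM, and at most 1.87 CPM in the other sorted libraries. Sorted oligodendrocyte replicate 36 stood apart, with 7674 genes detected against 16223 to 16575 in the other sorted oligodendrocyte libraries and 0 counts of the green fluorescent protein, and the main values that rest on it are also given without it. The astrocyte label was borne out by its markers. All 15 genes of the astrocyte list, which holds the driver gene Aldh1l1, were higher in sorted than in presort nuclei of the line (edgeR adjusted p under 0.05). Of all genes tested, 13.7% were. The summed level of the 15 genes was 24390 to 29842 CPM in sorted astrocyte nuclei, against 2562 to 4287 CPM in presort nuclei.

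Ttr, the thyroid hormone carrier, on the plus strand of chr18:20665280-20674321, was the most abundant of the 8. It stood at 421, 4571, 6788 and 6006 CPM in sorted astrocyte replicates 6, 8, 30 and 32, against 250.3, 655, 726 and 830.5 CPM in presort replicates 5, 7, 29 and 31 of that line. In sorted neuron nuclei it was 55.0, 82.7, 38.6 and 86.2 CPM (replicates 2, 4, 26 and 28) and in sorted oligodendrocyte nuclei 73.0, 48.6, 129 and 44.3 CPM (replicates 10, 12, 34 and 36). All 4 astrocyte libraries lay above every sorted neuron and oligodendrocyte library, whereas replicate 6 lay within the range of its presort group. Presort nuclei of the neuron line held 753, 784, 854 and 998 CPM (replicates 1, 3, 25 and 27), presort nuclei of the oligodendrocyte line 367, 831, 456 and 646 CPM (replicates 9, 11, 33 and 35), and cytoplasm 121 and 1412 CPM. The sorted neuron and oligodendrocyte nuclei thus lay below every presort library of any line. In bulk RNA of this kind, fewer cells of a type and less RNA per cell cannot be told apart.

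Folr1, the folate receptor, gave 29, 44.1, 59.5 and 71.3 CPM in sorted astrocyte replicates 6, 8, 30 and 32, against 0, 43.3, 13.1 and 37.7 CPM in presort nuclei of the line. Sorted neuron nuclei held 3 counts in replicate 2 (1.13 CPM) and 0 in the other 3 libraries, and sorted oligodendrocyte nuclei 3.07, 4.29, 3.35 and 0 CPM. The sorted astrocyte libraries were above all libraries of the other sorted types and overlapped the presort nuclei of their own line. No count was found in the 4 presort libraries of the neuron line, which together held 1098858 counts and would allow up to 2.73 CPM, and the presort oligodendrocyte line gave 0, 11.5, 11.5 and 27.3 CPM. By total counts, presort nuclei of the astrocyte line were at least 5.84-fold higher and those of the oligodendrocyte line at least 4.17-fold higher than presort nuclei of the neuron line, taking the floor of 3 counts over the group. These bounds pool libraries and leave out the spread between them. Replicate 29 held 43 of the 62 astrocyte-line counts, and 1 library of each of these 2 lines held 0. In edgeR's joint test over the lines, with no filter on low counts, the adjusted p was 0.574.

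Kl, the klotho gene, stood at 33.3, 71.1, 96.8 and 80.0 CPM in sorted astrocyte nuclei, against 20.3, 21.7, 17.1 and 29.4 CPM in presort nuclei of the line. It was 2.64, 2.92, 2.91 and 5.72 CPM in sorted neuron nuclei and 4.09, 4.29, 12.7 and 0.624 CPM in sorted oligodendrocyte nuclei. The sorted astrocyte libraries overlapped none of these groups. Presort nuclei spanned 6.53 to 29.8 CPM in the neuron line and 6.38 to 59.2 CPM in the oligodendrocyte line, and cytoplasm held 24.9 and 14.4 CPM.

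Kcnj13, the Kir7.1 channel, gave 54.1, 84.7, 149 and 137 CPM in sorted astrocyte nuclei, against 67.6, 17.3, 44.9 and 37.7 CPM in presort nuclei of the line. Sorted neuron nuclei held 10.9, 21.7, 35.7 and 24.8 CPM and sorted oligodendrocyte nuclei 33.4, 34.8, 31.3 and 1.87 CPM, the last in replicate 36. Sorted astrocyte nuclei were above both other sorted types, and their lowest library lay below the highest presort one. Of the 1270 exon bases of Kcnj13, 623 (49.1%) are shared with Gigyf2 on the opposite strand, and the library kit keeps no strand, so counts of the 2 genes could not be told apart there. Gigyf2 itself ran from 119 to 242 CPM in sorted astrocyte nuclei, 101 to 359 CPM in presort nuclei of the line, 175 to 250 CPM in sorted neuron nuclei and 29.3 to 237 CPM in sorted oligodendrocyte nuclei. The astrocyte range of Gigyf2 overlapped each of the others, unlike that of Kcnj13 beside the sorted neuron and oligodendrocyte nuclei. The part of Gigyf2 reads, spliced or unspliced, in the Kcnj13 counts of any group was not tested.

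Clic6 was lower, at 17.9, 38.6, 22.3 and 24.1 CPM in sorted astrocyte nuclei, against 6.76, 4.33, 6.11 and 21.0 CPM in presort nuclei of the line. It was 4.52, 1.25, 2.49 and 2.67 CPM in sorted neuron nuclei and 3.07, 0.953, 2.98 and 0 CPM in sorted oligodendrocyte nuclei. The sorted astrocyte range overlapped that of its presort nuclei through presort replicate 31 alone, and neither of the other sorted types. In the cytoplasm Clic6 was at 18.2 and 6.43 CPM.

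Tmem72, the membrane protein gene, had the clearest separation, with 46.0, 26.5, 89.3 and 35.2 CPM in sorted astrocyte nuclei, against 0, 4.33, 4.58 and 16.8 CPM in presort nuclei of the line. Sorted neuron nuclei held 1 count in all, in replicate 26, and sorted oligodendrocyte nuclei 3 counts, in replicate 34. No library of any other group reached the lowest sorted astrocyte library, and the highest of them, presort astrocyte-line replicate 31, had 16.8 CPM. Cytoplasm held 0.224 and 1.54 CPM.

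Otx2, the homeodomain factor, stood at 95.1, 91.7, 104 and 179 CPM in sorted astrocyte nuclei, against 108, 47.7, 58.6 and 79.7 CPM in presort nuclei of the line. It was 45.2, 54.7, 48.6 and 48.8 CPM in sorted neuron nuclei and 2.39, 0, 3.35 and 0 CPM in sorted oligodendrocyte nuclei. The 3 sorted types did not overlap, with astrocyte nuclei highest and neuron nuclei between, whereas the presort nuclei of the astrocyte line overlapped the sorted ones. Presort nuclei held 75.0, 118, 37.8 and 115 CPM in the neuron line and 31.9, 84.7, 88.1 and 91.0 CPM in the oligodendrocyte line, and cytoplasm 18.2 and 31.1 CPM. Otx2os1, a gene on the opposite strand, shares 154 exon bases (3.6%) with Otx2 and had at most 5.12 CPM in any sorted library.

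Foxj1, the cilium factor, was the 1 gene of the 8 whose mean was not highest in sorted astrocyte nuclei. It gave 7.67, 5.47, 14.9 and 9.26 CPM in sorted astrocyte nuclei, against 0, 4.33, 1.83 and 4.19 CPM in presort nuclei of the line. Every sorted astrocyte library lay above every presort library of the line and every sorted neuron library. Sorted oligodendrocyte nuclei were higher than sorted astrocyte nuclei in 3 of 4 libraries, with 23.5, 27.6, 17.5 and 0 CPM, the 0 in replicate 36. Sorted neuron nuclei held 2.64, 0.418, 0 and 0 CPM. Its highest group mean was that of sorted oligodendrocyte nuclei, 17.2 ± 12.2 CPM, with cytoplasm next at 13.7 ± 10.8 CPM (n = 2) and sorted astrocyte nuclei after that at 9.32 ± 4.02 CPM (SD, n = 4 each for nuclei).

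**Figure D1:**
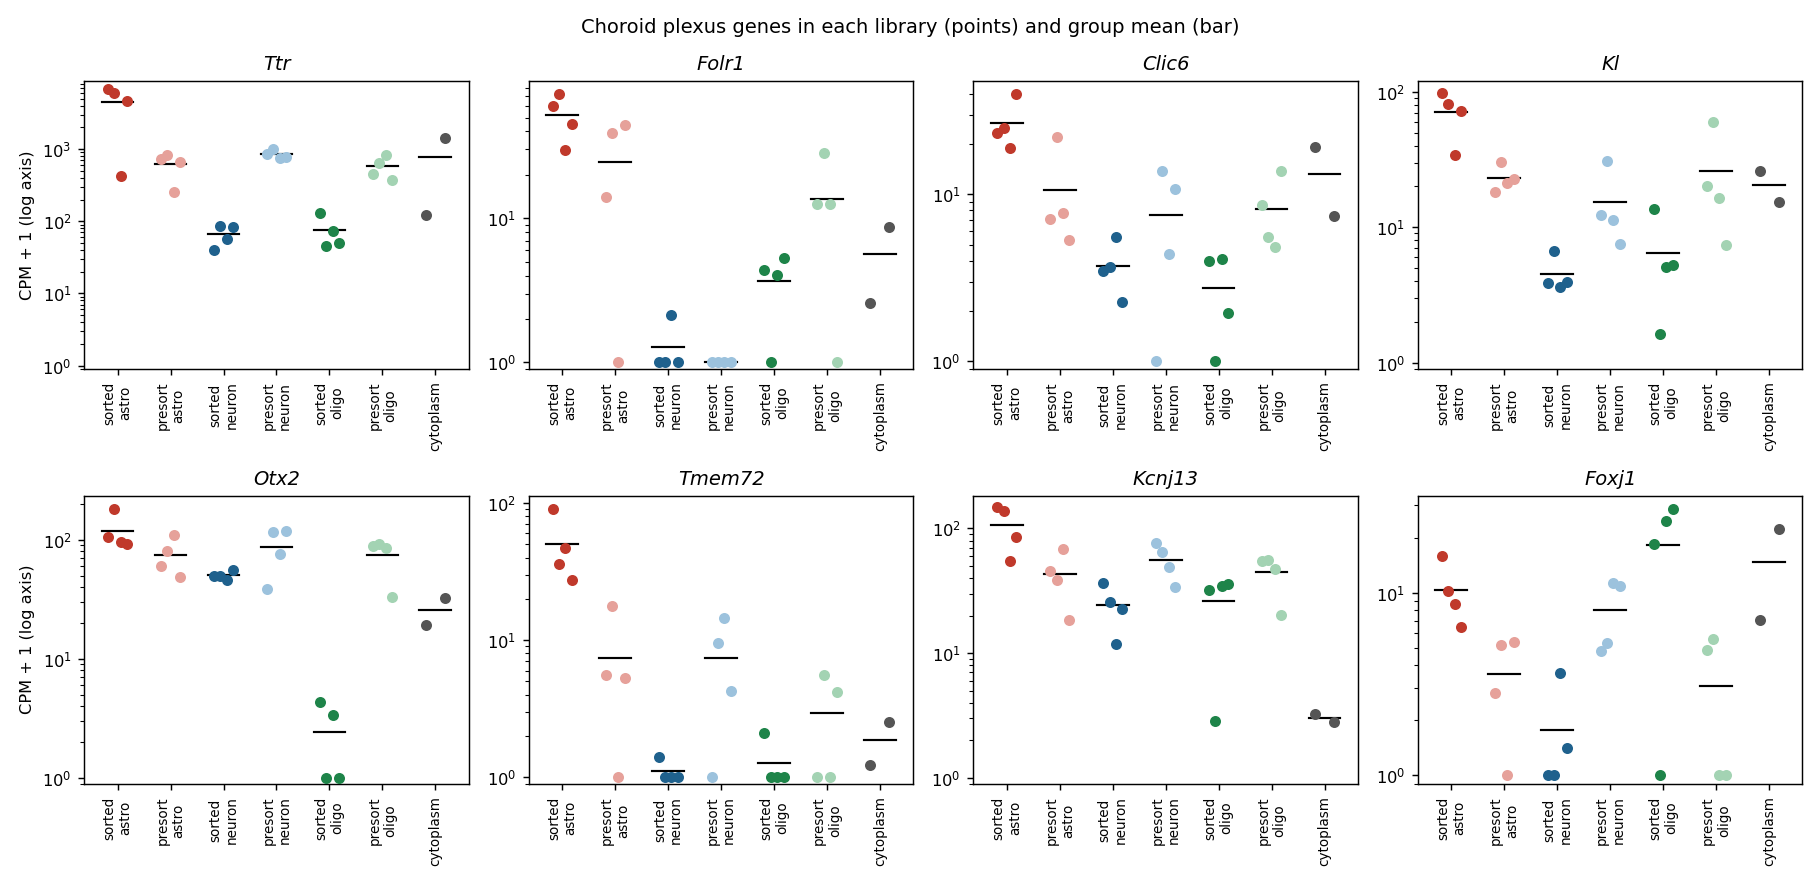
CPM plus 1, on a log axis, of each of the 8 genes in every library (points) with the group mean (bar), for sorted and presort nuclei of the astrocyte, neuron and oligodendrocyte lines (4 libraries each) and for cytoplasm (2 libraries). Sorted astrocyte nuclei have the highest mean for 7 genes, and Otx2 is near 0 in sorted oligodendrocyte nuclei but not in sorted neuron nuclei, where it was 45.2 to 54.7 CPM.

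Ordered by group mean, sorted astrocyte nuclei came first for 7 of the 8 genes, but next neighbours in that order overlapped in most places. For Ttr the means were 4446 ± 2836 CPM in sorted astrocyte nuclei, then 847 ± 109, 767 ± 913, 615 ± 254 and 575 ± 207 CPM in presort neuron-line nuclei, cytoplasm, and presort nuclei of the astrocyte and oligodendrocyte lines, all overlapping the next in the order. A gap without overlap came only before sorted oligodendrocyte (73.6 ± 38.7 CPM) and sorted neuron nuclei (65.6 ± 22.8 CPM), which overlapped each other. Tmem72 was the one gene whose first group, at 49.3 ± 27.9 CPM, did not overlap its second, presort nuclei of the astrocyte line at 6.42 ± 7.22 CPM (SD, n = 4, or 2 for cytoplasm). For Otx2 the gaps lay below sorted neuron nuclei (49.3 ± 3.94 CPM) and below cytoplasm (24.6 ± 9.18 CPM), with sorted oligodendrocyte nuclei last at 1.43 ± 1.70 CPM.

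Per kilobase of exon, the level in sorted astrocyte nuclei was 3749 ± 2392 CPM per kb for Ttr, 83.6 ± 35 for Kcnj13, 27.9 ± 9.83 for Otx2 and 22.2 ± 8.02 for Folr1. It was 7.53 ± 2.88 CPM per kb for Kl, 6.58 ± 2.30 for Clic6, 3.55 ± 1.53 for Foxj1 and 2.87 ± 1.62 for Tmem72 (SD, n = 4). Ttr was thus far above the other genes on this scale. Whether reads from introns were counted is not given in the sources used here, so a length of exons may not be the length that was counted.

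Against sorted neuron nuclei, the fitted log2 fold change in sorted astrocyte nuclei was 6.23 ± 0.69 for Ttr, 4.41 ± 0.69 for Kl, 3.46 ± 1.10 for Foxj1, 3.38 ± 0.68 for Clic6, 2.34 ± 0.64 for Kcnj13 and 1.45 ± 0.61 for Otx2. For Folr1 and Tmem72 the neuron libraries held 3 counts and 1 count, so the counts give a ratio of 170 (95% counting interval 57.9 to 830) for Folr1 and 368 (65.5 to 14568) for Tmem72. The libraries of the 2 groups did not overlap, with astrocyte nuclei higher, for 8 of 8 genes, where 15.1% of the 13029 genes tested did so. Since this contrast chose the genes, nothing is read from that count.

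Against sorted oligodendrocyte nuclei, the log2 fold change in sorted astrocyte nuclei was 6.08 ± 0.78 for Otx2, 5.70 ± 0.67 for Ttr, 4.03 ± 0.81 for Folr1, 3.64 ± 0.70 for Clic6, 3.49 ± 0.66 for Kl and 1.91 ± 0.63 for Kcnj13. Tmem72 had a count ratio of 113 (38.4 to 552), from 302 counts against 3. Foxj1 had -1.17 ± 0.94. The groups did not overlap, with astrocyte nuclei higher, for 7 of 8 genes (15.8% of all genes tested). Without sorted oligodendrocyte replicate 36 the values were 5.78 for Otx2, 5.62 for Ttr, 3.71 for Folr1, 3.36 for Clic6, 3.17 for Kl, 1.51 for Kcnj13 and -1.6 for Foxj1, all in the same direction. In females alone, a fit that holds that library, Foxj1 was at 0.27, and in males alone at -2.08.

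Within the astrocyte line, the log2 fold change of sorted over presort nuclei was 3.08 ± 0.57 for Tmem72, 3.02 ± 0.53 for Ttr, 1.91 ± 0.53 for Clic6, 1.90 ± 0.40 for Kl, 1.51 ± 0.39 for Kcnj13, 1.42 ± 0.51 for Folr1 and 1.0 ± 0.34 for Otx2. Foxj1 had too few counts to enter this fit, and with no filter on low counts it had 2.02 ± 0.80. The median over the 7 genes was 1.90, beside -0.03 over all 11026 genes tested and 3.45 over the 15 astrocyte genes. Groups did not overlap, with sorted nuclei higher, for Tmem72 and Kl, 2 of the 7 genes (9.54% of all genes tested). The driver gene Aldh1l1 had 3.35 ± 0.42 and the astrocyte genes Aqp4 and Slc1a3, a water channel and a glutamate transporter, had 4.0 ± 0.34 and 3.66 ± 0.28. Fits within each sex moved some of the 8: males alone gave 0.91 for Folr1 and 4.09 for Tmem72, and females alone 2.03 for Folr1 and 3.12 for Tmem72, with the direction kept.

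**Figure D2:**
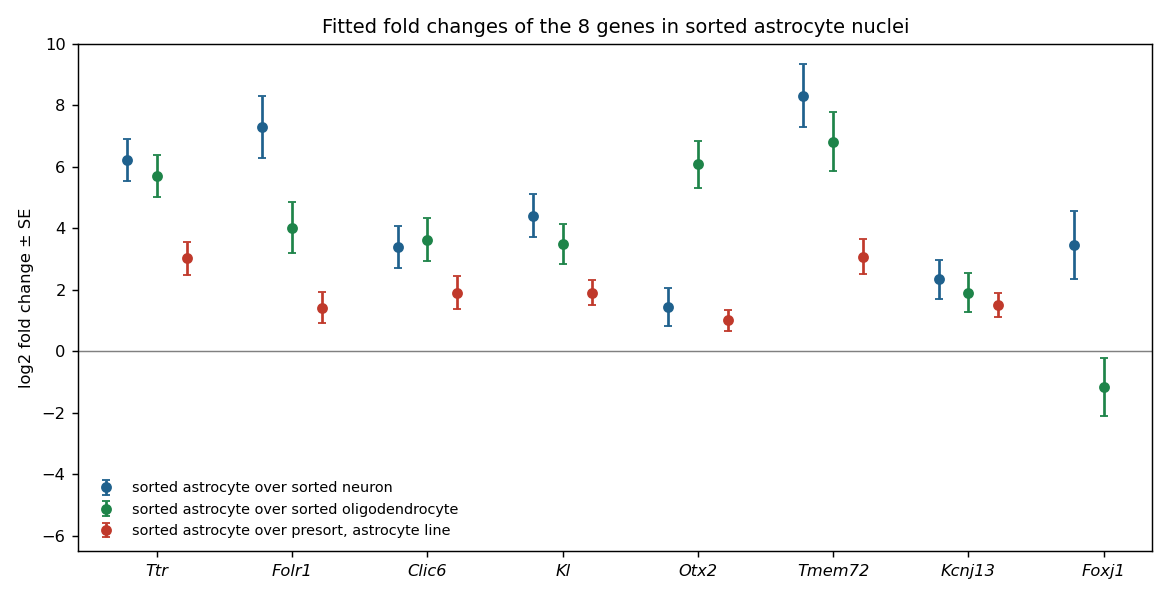
Fitted log2 fold change with its standard error (bars) of the 8 genes in 3 comparisons: sorted astrocyte over sorted neuron nuclei, over sorted oligodendrocyte nuclei, and over presort nuclei of the astrocyte line (4 libraries a group). All are above 0 except Foxj1 against sorted oligodendrocyte nuclei (-1.17), and Foxj1 was not fitted over presort nuclei. The fitted values of Folr1 over neuron nuclei and of Tmem72 over both other sorted types rest on at most 3 counts in the other group and depend on the fit's prior count.

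A list of 30 other genes known from the choroid plexus was tested beside the 8. Against sorted neuron nuclei, 18 of the 22 with enough counts rose in sorted astrocyte nuclei, none fell and 4 did not pass (edgeR quasi-likelihood test, Benjamini-Hochberg adjusted p under 0.05). Of all genes tested, 11.4% rose and 8.02% fell. The 8 genes left out had low counts, and some of the 22 passed the filter on low counts only through the astrocyte libraries, so the count is a description. With no filter, 21 of all 30 rose and 9 did not pass, where 9% of all 20381 genes rose. The median log2 fold change was 3.77 for the list and -0.05 for all genes tested. Against sorted oligodendrocyte nuclei, 15 of 22 rose (9.62% of all genes), 2 fell (7.48% of all genes) and 5 did not pass, with a median of 3.17 against 0.11 for all genes. Without sorted oligodendrocyte replicate 36 the count that rose was 19, and with no filter it was 18 of 30 (7.29% of all genes). The pair that fell, named after their values were seen, were Enpp2, which encodes the secreted enzyme autotaxin, at 1239 ± 595 CPM in astrocyte and 2256 ± 633 CPM in oligodendrocyte nuclei (log2 fold change -1.13 ± 0.36, adjusted p = 0.0378), and Wfikkn2, at 0.776 ± 0.705 and 16.9 ± 7.83 CPM (-4.33 ± 0.74, adjusted p = 0.00049). Without replicate 36 both still fell, at -1.11 (adjusted p = 0.0196) and -3.86 (adjusted p = 0.000119). Enpp2 is also known from oligodendrocytes.

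Within the astrocyte line, 13 of the 19 tested genes of this list rose in sorted over presort nuclei (13.7% of all genes tested), none fell (15.4%) and 6 did not pass, and with no filter on low counts 14 of all 30 rose (9.09% of all genes). Some of the 19, such as Sostdc1 at 8.13 ± 3.49 CPM in presort nuclei, passed the filter on low counts through the sorted nuclei. The count of 13 and the p-values of such genes are therefore a description. The median was 1.56, beside -0.03 for all genes. The largest fold change was that of Rdh5, a retinol dehydrogenase, at 82.2 ± 27.4 CPM in sorted and 10.3 ± 8.95 CPM in presort nuclei (SD, n = 4 each; log2 fold change 3.14 ± 0.46, adjusted p = 2.14e-05). Of its 2809 exon bases, 720 (25.6%) are shared with Bloc1s1. F5, coagulation factor V, rose by 2.41 ± 0.63 on the log2 scale (adjusted p = 0.00589), Col9a3, a collagen chain, by 2.32 ± 0.36 (4.17e-05), and Cldn2, the claudin of the choroid plexus tight junction, by 2.23 ± 0.54 (0.00303).
The other 4 of the 8 largest were Slc4a5, a bicarbonate transporter, at 2.21 ± 0.48, Sostdc1, a secreted inhibitor of bone morphogenetic protein and Wnt signalling, at 2.19 ± 0.55, Prlr, the prolactin receptor, at 2.0 ± 0.55, and Abca4, a retinoid transporter, at 1.88 ± 0.56. Aqp1, the water channel of the epithelium, and Kcne2, a potassium channel subunit, had too few counts for this fit, at 9.69 ± 10.2 and 25.6 ± 23.7 CPM in sorted nuclei, against 0.458 ± 0.916 and 3.20 ± 2.93 CPM in presort nuclei. The count of 13 depended on single libraries: it was 4 without sorted astrocyte replicate 32, 5 without presort replicate 29, 6 without sorted astrocyte replicate 8, 7 without sorted astrocyte replicate 6, and 4 in males alone.

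**Figure D3:**
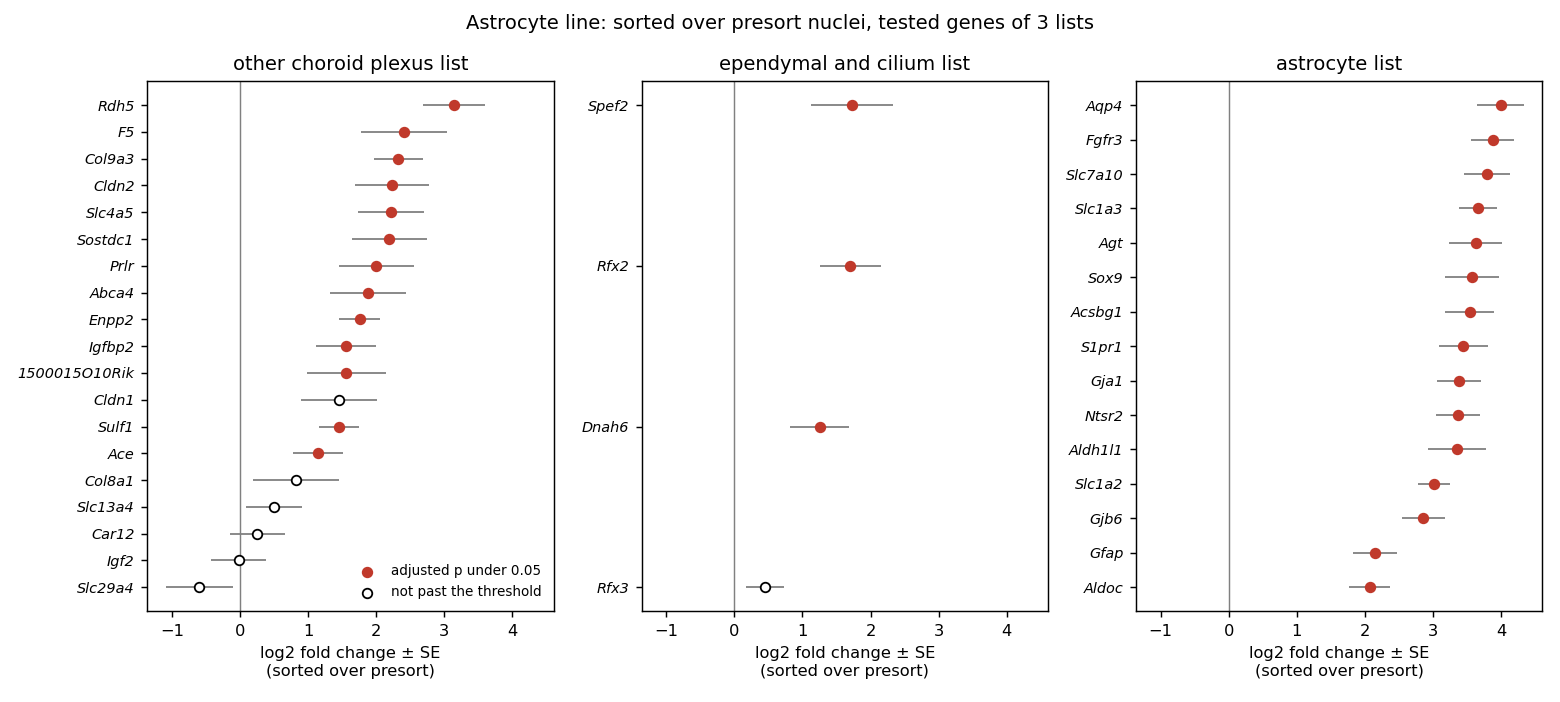
Log2 fold change of sorted over presort nuclei in the astrocyte line, with its standard error (bars), for the tested genes of 3 lists: 19 other choroid plexus genes, 4 ependymal and cilium genes and 15 astrocyte genes (filled points, adjusted p under 0.05). The astrocyte genes lie between 2 and 4 and all passed, and 13 of the choroid plexus genes did.

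Genes of the ependyma and the motile cilium were mostly at the edge of detection. Of 26 on this list, 22 averaged under 10 CPM in sorted astrocyte nuclei and 5 had no count there. Their summed level was 422 to 552 CPM in sorted astrocyte nuclei, against 269 to 494 CPM in presort nuclei, most of it from Rfx3, which averaged 318 ± 71.9 CPM in sorted and 278 ± 92.7 CPM in presort nuclei, and 296 ± 72.0 CPM in sorted neuron nuclei. Without Rfx3 the other 25 genes summed to 126 to 223 CPM in sorted astrocyte nuclei, against 66.3 to 105 CPM in presort nuclei, with no overlap. The largest means among the 25 in sorted astrocyte nuclei were those of Dnah6 (64.4 ± 23.1 CPM), Rfx2 (36.3 ± 8.08 CPM) and Spef2 (15.4 ± 6.46 CPM). The sum does not stand for every gene. Some means were lower in sorted than in presort nuclei, such as Hydin (3.40 ± 2.88 against 8.19 ± 5.82 CPM) and Spag17 (0.695 ± 1.39 against 3.90 ± 2.67 CPM). Of the 4 that were tested within the line, 3 rose, where 13.7% of all genes did: Spef2, a sperm flagellar protein also of cilia, by 1.73 ± 0.61 on the log2 scale (adjusted p = 0.0372), Rfx2, a transcription factor of ciliogenesis, by 1.70 ± 0.45 (0.00599), and Dnah6, a dynein heavy chain, by 1.25 ± 0.43 (0.0319). Rfx3, a related factor, had 0.45 (adjusted p = 0.273). The rest of the list had too few counts. Spef2, at 5.29 ± 5.49 CPM in presort nuclei, passed the filter on low counts through the sorted nuclei, so the count of 3 is a description. These calls came from edgeR's quasi-likelihood test with Benjamini-Hochberg adjustment, and those of Spef2 and Dnah6 were lost in males alone, in females alone and in the fit of all 24 nuclear libraries.

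Markers of other cell types that lie beside the choroid plexus or within its core were counted in the same fits. Of 6 tested endothelial genes none rose and 4 fell in sorted over presort nuclei of the astrocyte line (median log2 fold change -2.77), and of 6 tested mural cell genes 1 rose and 3 fell (median -0.87), where 13.7% of all genes rose and 15.4% fell. Of 9 leptomeningeal fibroblast genes none passed in either direction (median -0.26), and their summed level was 192 to 491 CPM in sorted nuclei, against 357 to 440 CPM in presort nuclei. Against sorted neuron nuclei, where 11.4% of all genes rose, 7 of 8 tested leptomeningeal genes (median 4.09), 4 of 5 mural genes (4.29) and 2 of 6 endothelial genes (2.66) rose in sorted astrocyte nuclei and none fell, beside the median of 3.77 for the other choroid plexus genes. Against sorted oligodendrocyte nuclei, where 9.62% of all genes rose, 1 of 8 leptomeningeal genes (median 0.57), 2 of 5 mural genes (1.09) and 0 of 6 endothelial genes (-0.30) rose and none fell. That fit holds sorted oligodendrocyte replicate 36, and these counts are not given without it. Summed levels in sorted oligodendrocyte nuclei spread widely, from 4.99 to 321 CPM for leptomeningeal, 1.87 to 139 CPM for mural and 0 to 144 CPM for endothelial genes. Of 5 pineal genes, a tissue that also expresses Otx2, 4 had no count in sorted astrocyte nuclei and their summed level was at most 0.426 CPM. The part of these other cell types in the levels of the 8 genes was not tested.

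The 4 sorted astrocyte libraries differed among themselves. Replicate 6, from a male, was the lowest for 5 of the 8 genes and for 16 of the 30 other choroid plexus genes, and for 6 of the 15 astrocyte genes, where replicate 30 was the lowest for 5. Its Ttr was 421 CPM, 14.3-fold below the median of the other 3 libraries, and its Kcnj13, Kl and Folr1 were 2.53-fold, 2.40-fold and 2.05-fold below. It held 3 counts of Aqp1, against 51 in the other 3 libraries together. For Otx2 and Clic6 the same ratio was 1.10 and 1.34, and Tmem72 was higher in replicate 6 than the median of the others (ratio 0.764). The genes therefore did not shift by 1 common factor. Replicate 30, the shallow library, was the highest for 5 of the 8 genes, for Foxj1 on 2 counts. Without replicate 6, the log2 fold change of Ttr over presort nuclei was 3.43.

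**Figure D4:**
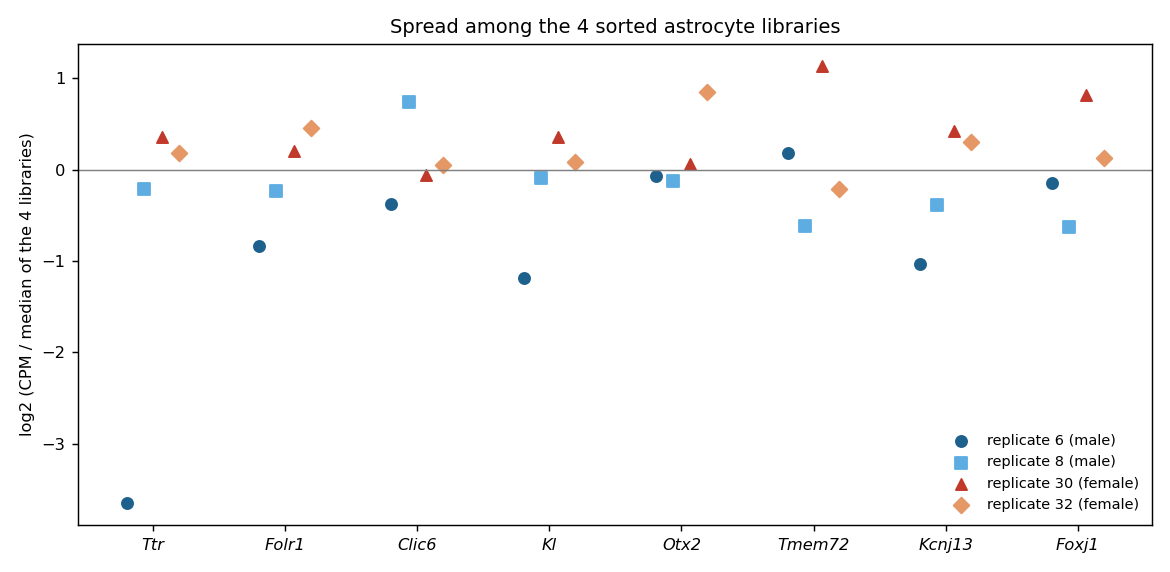
For each of the 8 genes, the level in sorted astrocyte replicates 6, 8, 30 and 32 as the log2 ratio to the median of the 4 libraries (0 line). Replicate 6 lies lowest for Ttr (421 CPM, against 4571 to 6788 CPM in the others), Folr1, Kl, Kcnj13 and Clic6, and near the others for Otx2.

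The number of Folr1 counts per 1000 Ttr counts also varied. It was 12.7 (95% exact counting interval 11.5 to 14) in sorted astrocyte nuclei and 22.4 (17.2 to 28.9) in presort nuclei of the line. Presort replicate 29 held 2376 of the Ttr counts of its group, and without it the value was 49.2 (29.3 to 77.9). In sorted oligodendrocyte nuclei it was 36.9 (24.1 to 54.1), on 27 Folr1 counts, in sorted neuron nuclei 4.52 (0.931 to 13.3), on 3, in presort nuclei of the neuron line 0 (up to 4.01), in those of the oligodendrocyte line 20.3 (10.4 to 35.7), and in cytoplasm 6.14 (4.32 to 8.47), or 13 (5.19 to 26.9) without replicate 2. Within sorted astrocyte nuclei, replicate 6 had 68.9, against 9.65, 8.77 and 11.9 in replicates 8, 30 and 32. The intervals cover counting error only, and libraries of a group differed by more than that.

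Sorted neuron and sorted oligodendrocyte nuclei were compared next, a contrast without the astrocyte nuclei. Both types took part in choosing the genes, as those against which the astrocyte nuclei were seen to be high. Of the 8 genes 3 passed (edgeR quasi-likelihood test, Benjamini-Hochberg adjusted over all 13029 genes), where 23.1% of all genes did, 10.7% higher and 12.4% lower in neuron nuclei. Otx2 rose in neuron nuclei, Foxj1 and Folr1 fell, and 5 did not pass. Genes with few counts in both types, such as Folr1 and Tmem72, passed the filter on low counts through the astrocyte libraries of the shared fit. The count is therefore a description, and with no filter it was also 3. Otx2 averaged 49.3 ± 3.94 CPM in neuron nuclei and 1.43 ± 1.70 CPM in oligodendrocyte nuclei (SD, n = 4 each), a log2 fold change of 4.63 ± 0.74 (24.8-fold, adjusted p = 0.000298), and every neuron library was above every oligodendrocyte library. Without sorted oligodendrocyte replicate 36 it was 4.32 (adjusted p = 6.20e-06). Foxj1 averaged 0.764 ± 1.26 CPM in neuron nuclei and 17.2 ± 12.2 CPM in oligodendrocyte nuclei (-4.62 ± 1.08, adjusted p = 0.0056), and without replicate 36 its log2 fold change was -5.03.
Folr1 had 3 counts in neuron nuclei against 27 in oligodendrocyte nuclei (-3.28 ± 1.0, adjusted p = 0.0254). That call was lost without sorted neuron replicate 26, 28 or 4 (adjusted p = 0.0765, 0.0767 and 0.0787) or sorted oligodendrocyte replicate 12 (0.0508), and was kept without replicate 36 (0.00172). For Ttr the log2 fold change was -0.53 ± 0.56 (adjusted p = 0.547), for Kl -0.92 ± 0.64 (0.335), for Kcnj13 -0.43 ± 0.61 (0.663), for Clic6 0.26 ± 0.71 (0.837) and for Tmem72 -1.5 ± 1.31 (0.451). Kcnj13 passed in males alone (-1.39, adjusted p = 0.0315), a fit that leaves out replicate 36. Of the 22 other choroid plexus genes tested, 2 rose and 6 fell in neuron nuclei, with a median of -1.08 against 0.16 for all genes.

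In the other lines the values of sorted over presort nuclei are a description, since their sorted libraries also took part in choosing the genes. In the neuron line, the log2 fold change of sorted over presort nuclei was -3.58 ± 0.29 for Ttr, -1.12 ± 0.41 for Kcnj13 and -0.68 ± 0.32 for Otx2. In the oligodendrocyte line it was -2.46 ± 0.46 for Ttr, -5.11 ± 0.99 for Otx2, -1.77 ± 0.89 for Kl and -0.40 ± 0.72 for Kcnj13. Without replicate 36 the values of the oligodendrocyte line were -2.46 for Ttr, -4.79 for Otx2 and -0.01 for Kcnj13, which was at 0.55 in males alone, and Kl had too few counts. Sorted libraries lay below every presort library of their line for Ttr in the neuron line, 1 of 3 genes (9.13% of all genes tested), and for Ttr and Otx2 in the oligodendrocyte line, 2 of 4 (19.7%). The other genes had too few counts for these fits.
The difference between these sort effects, oligodendrocyte minus neuron line, was tested in 1 fit of 16 libraries, a test added after the data had been seen. Of the 4 genes tested only Otx2 passed, with -4.38 ± 0.90 (edgeR adjusted p = 0.00258, where 11.5% of all genes passed), and without sorted oligodendrocyte replicate 36 it was -4.08 (adjusted p = 0.000143). The difference was 1.06 ± 0.50 for Ttr (adjusted p = 0.195), 0.75 ± 0.86 for Kcnj13 (0.666) and 0.10 ± 0.94 for Kl (0.967). With no filter on low counts Foxj1 also passed, with 6.39 ± 1.64 (adjusted p = 0.00875). Of 14 other choroid plexus genes tested, 3 had a higher and 1 a lower sort effect in the oligodendrocyte line, and 10 did not pass.

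Presort nuclei were compared with cytoplasm, 12 libraries against 2, a contrast in which 50.3% of all 7728 genes tested passed, 20.1% higher and 30.2% lower in nuclei. Of the 3 genes with enough counts, Kcnj13 and Otx2 rose in nuclei. Kcnj13 ran from 17.3 to 75.6 CPM in presort nuclei, against 2.24 and 1.80 CPM in cytoplasm (log2 fold change 3.84 ± 0.58, edgeR adjusted p = 1.39e-05), with no overlap. Gigyf2, which shares 49.1% of the Kcnj13 exon bases, ran from 101 to 359 CPM in presort nuclei, against 127 and 80.8 CPM in cytoplasm. The part of Gigyf2 reads in the Kcnj13 values was not tested. Otx2 ran from 31.9 to 118 CPM in presort nuclei, against 18.2 and 31.1 CPM in cytoplasm (1.07 ± 0.43, adjusted p = 0.0434). That call was lost without presort replicate 29 (adjusted p = 0.0505), 31, 35, 3 or 11, without cytoplasm replicate 1 (0.161), or with no filter (0.0949).
Ttr ran from 250.3 to 998 CPM in presort nuclei and did not pass (-0.68 ± 0.47, adjusted p = 0.239), and its cytoplasmic values, 121 and 1412 CPM, lay on either side of that range. Without cytoplasm replicate 1 the log2 fold change was -1.46 (adjusted p = 0.00329), and without cytoplasm replicate 2 it was 1.80 (adjusted p = 0.00586). Each of these fits has a single cytoplasmic library, which is assumed to vary as the presort libraries do, so these p-values say nothing of the spread between cytoplasmic samples. The 2 cytoplasmic libraries came from different lines and sexes, which cannot be told apart here. With no filter on low counts, Foxj1 also passed, lower in nuclei (-2.5 ± 0.64, adjusted p = 0.00395). Of the 10 tested genes among the other choroid plexus genes, 3 rose in nuclei, 1 fell and 6 did not pass. All tested endothelial (7), mural (6) and leptomeningeal (6) genes rose in nuclei, and their part in the values of the 8 genes was not tested.

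Among the 3 lines before sorting, no gene passed the joint test over the lines (0% of 6049 genes tested by edgeR, with 201 at an unadjusted p under 0.05 and 4 called by DESeq2). Ttr, Otx2 and Kcnj13 had unadjusted p-values of 0.180, 0.737 and 0.603, all with an adjusted p of 1, and the other 5 had too few counts. With no filter on low counts Folr1, at 0 in the neuron line, had an unadjusted p of 0.00076 and an adjusted p of 0.574.
Males and females did not differ past the threshold for any of the 8 genes, either in presort nuclei (3 tested, with 0.678% of all genes called) or in sorted nuclei (8 tested, with 0.0461% of all genes called). None of these had an unadjusted p under 0.05, and DESeq2 also called none of the 8. With no filter on low counts, Kl in presort nuclei (0.0386) and Ttr in sorted nuclei (0.0261) had an unadjusted edgeR p under 0.05. Sex and the block of replicate numbers coincide in the nuclear libraries, so they cannot be told apart, here or in fits of 1 sex alone. The log2 fold change of Ttr in males over females was -0.29 ± 0.24 in presort nuclei (edgeR adjusted p = 0.646) and -0.61 ± 0.45 in sorted nuclei (0.877).

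The genes whose pattern over the 26 libraries was most like the mean of the 8 were sought among 9475 genes with a mean of at least 10 CPM in sorted astrocyte nuclei, by Pearson r of log2(CPM + 1) with the mean of the 8 standardised genes. The first 8 were Fads2 (r = 0.951), a fatty acid desaturase, Dio2 (0.943), the deiodinase that activates thyroid hormone, Pla2g7 (0.942), a phospholipase, Sdc4 (0.936), a cell surface proteoglycan, Lcat (0.934), an acyltransferase of cholesterol, Egfr (0.932) and Fgfr3 (0.929), both growth factor receptors, and Htra1 (0.931), a secreted protease. Fads2 averaged 232 ± 53.7 CPM in sorted astrocyte nuclei and 35.2 ± 13 CPM in presort nuclei of the line (SD, n = 4 each). Of the 15 astrocyte genes 8 were among the first 30 of the 9475, with a median rank of 28. Most of the 8 genes were picked as high in sorted astrocyte nuclei, and the ranked genes had to reach a level there. A high rank of astrocyte genes was therefore built in, and nothing is read from it. No other choroid plexus gene was among the first 30, and Cldn2 came nearest at rank 94 (r = 0.864), with a median rank of 705 for the 21 that were ranked. Of the 8 genes themselves, each set against the mean of the other 7, Kl (0.895), Ttr (0.840) and Tmem72 (0.813) were closest and Kcnj13 (0.514) and Foxj1 (0.275) farthest, over libraries that include those that chose them. With the 12 sorted libraries alone, 2 of the first 8 remained. The libraries share their groups and differ in depth, so r is a description.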

How the data were processed

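RNA was sequenced from 12 libraries of sorted nuclei, 12 of presort nuclei and 2 of cytoplasm from whole mouse brain. Per the labels' protocols, RNA came from a Trizol extraction with DNase treatment and a Qiagen clean-up, and NuGEN's Ovation V2 system made the amplified libraries. The submitters' processing notes name the tools Trimmomatic, STAR, Bowtie2, edgeR and bedtools. Not given in the sources used here are the build, annotation, counted regions and strand setting. The authors deposited raw counts per gene, as whole numbers, in 1 table of 26 columns. The kit keeps no strand and no molecular identifiers, so intervals and floors cover counting error only.

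Of 27501 identifiers, 26574 matched GENCODE M21 (GRCm38) and 927 did not. CPM was computed over a library's gene total, without TMM. Counts were tested with edgeR 4.0.16 (quasi-likelihood F test, TMM, filterByExpr with a minimum count of 10, two-sided, Benjamini-Hochberg over all genes tested, threshold 0.05) in R 4.3.3, and the standard error is the absolute log2 fold change over the square root of F. The 3 sorted types shared 1 fit. Sex was fitted with line or cell type as a covariate, and presort lines jointly. Alternatives were other size factors, no filter, DESeq2 1.42.0, sex as a covariate, each sex alone, all nuclear libraries in 1 fit and each library left out. Interval bounds are exact binomial at 95%. The script was tested on simulated counts. Replicates of a group are separate mice per the design text, and no pair were copies (chi-square per degree of freedom at least 1.97 over 37 pairs). That text names presort RNA as the control of each mouse. Sorted and presort libraries of a line can thus share mice, and the fits treat them as independent.

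The 8 genes, the 11 gene lists, the tests and the sequences were chosen with earlier results of these data known. Named genes beyond the 8 were the 8 largest changes among other choroid plexus genes that passed in sorted over presort astrocyte-line nuclei, up to 6 ependymal and cilium genes by the same rule, 3 astrocyte genes and the 8 genes most like the mean of the 8.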

Additional observations from a re-analysis of the deposited data

Results flagged for a closer look

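In a group of 4 libraries, a gene was listed when its highest or lowest library lay far from the other 3 relative to the group's range. This held for 9 of the 48 gene and group pairs looked at. Chance lists about 1 in 20 for normally distributed values, which CPM on few counts need not be. In 3 of the 9 the other 3 libraries were at 0, so that 1 to 3 counts were enough, and that rate does not apply to such counts.

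Sorted astrocyte replicate 32 was high for Otx2, at 179 CPM, with the next library at 104 CPM. Presort astrocyte-line replicate 31 was high for Clic6, at 21.0 CPM on 5 counts. Presort oligodendrocyte-line replicate 9 was low for Otx2, at 31.9 CPM on 10 counts, with the next library at 84.7 CPM. Sorted oligodendrocyte replicate 36, the library with few genes detected, was low for Kcnj13, at 1.87 CPM, with the next at 31.3 CPM. In sorted neuron nuclei, replicate 28 was high for Kl, at 5.72 CPM, and replicate 2 for Folr1, at 1.13 CPM, and Foxj1, at 2.64 CPM. Sorted neuron replicate 26 had the 1 Tmem72 count of its group (0.415 CPM), and sorted oligodendrocyte replicate 34 had all 3 Tmem72 counts of its group (1.12 CPM).

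The effect of the sort on Otx2 differed between the oligodendrocyte and the neuron line, by -4.38 on the log2 scale (edgeR quasi-likelihood test of the interaction, adjusted p = 0.00258). That test was added after the data had been seen, on libraries that took part in choosing the genes, so its p-value is a description. Sorted nuclei were below presort nuclei in 4 of 4 oligodendrocyte-line libraries, at 0 to 3.35 CPM against 31.9 to 91.0 CPM, whereas in the neuron line, at 45.2 to 54.7 CPM against 37.8 to 118 CPM, the groups overlapped.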

How the results depend on the processing

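No paired analysis was possible because the groups share no replicate numbers, and the labels do not say which presort and sorted libraries came from the same mouse. Of 2035 values recomputed under alternatives, 1875 kept their direction and side of the threshold or moved within their spread, 69 lost a call, 8 gained one, 82 moved and 1 reversed, that of Ttr in presort nuclei over cytoplasm (-1.46 without cytoplasm replicate 1 and 1.80 without cytoplasm replicate 2). The cause of these changes was not tested.

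Among other choroid plexus genes higher in sorted astrocyte nuclei, females alone gave 2 against neuron (18 in the main fit, 16 to 19 with 1 library left out) and 0 against oligodendrocyte nuclei (15, 12 to 19). Over presort nuclei (13, 4 to 15), males alone gave 4 and the fit of all 24 nuclear libraries 7. Of the 8 genes, neuron against oligodendrocyte nuclei called 0 in females alone (3, 2 to 3), presort nuclei against cytoplasm 1 to 3 with 1 library left out (2), and the difference of sort effects 2 with no filter, 2 in males alone and 0 in females alone (1, 1 to 2). Female sorted fits hold both sorted astrocyte replicate 30 and sorted oligodendrocyte replicate 36.

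Counts over all genes were 2534 for astrocyte against neuron nuclei (46 in females alone, 5096 without replicate 36), 2229 for astrocyte against oligodendrocyte nuclei (67 and 3566) and 3005 for neuron against oligodendrocyte nuclei (123 and 4812). They were 3205 for sorted over presort astrocyte-line nuclei (1533 in males alone, 2133 with all 24 libraries, 1833 without presort replicate 29), 3891 for presort nuclei against cytoplasm (6815 with no filter) and 1304 for the difference of sort effects (1959 by DESeq2, 60 in females alone). Among lines 0 became 1 with no filter and 4 by DESeq2, for sex in presort nuclei 41 became 129 and 112, and for sex in sorted nuclei 6 became 30 and 54 (49 without replicate 36). By DESeq2 the share of calls that were higher was 56.9% in neuron over oligodendrocyte nuclei (46.4% by edgeR) and 14.8% in males over females of sorted nuclei (66.7%). Of the first 8 genes by likeness, 2 were shared with the 12 sorted libraries alone. Among presort libraries, depth limits Folr1, Clic6, Tmem72 and Foxj1 most, where a library often held under 10 counts.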
